A study of Mus musculus with 4 samples.

Results

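The genes examined were the drivers of the G1 phase and of entry into S phase: the D cyclins Ccnd1, Ccnd2 and Ccnd3, the E cyclins Ccne1 and Ccne2, the kinases Cdk2, Cdk4 and Cdk6, and the transcription factors E2f1 and Myc. They were taken by symbol, as a set named with earlier results of these data known, and all 10 of 10 were found among the 55487 genes of the count table. RNA was sequenced from wild-type mouse embryonic fibroblasts (MEFs), primary cells with a limited lifespan in culture that ends in senescence. The sample labels give them as passage 2, while the study's text gives a later passage for the sequenced cells. The cells were left untreated (control) or received pigment epithelium-derived factor (PEDF), a secreted glycoprotein, as a recombinant protein purified from mammalian cells, at 100 ng/mL for 24 h. Each of 2 independent experiments used its own embryos and gave 1 control and 1 PEDF library, so there were 2 libraries a group and the libraries of an experiment shared a MEF preparation. The comparison asked whether these genes changed in cells exposed to PEDF.

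D cyclins bind Cdk4 and Cdk6 when growth factors are present, and these kinases phosphorylate the retinoblastoma protein, which then releases E2F transcription factors. E2F factors activate the genes of the E cyclins and of DNA replication, and cyclin E with Cdk2 completes the phosphorylation of the retinoblastoma protein. MYC, a transcription factor induced by mitogens, binds the E-box sequence together with MAX and raises the expression of growth and metabolic genes.

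The libraries held 14722848 to 18144640 counts, and 3 counts corresponded to 0.168 to 0.203 CPM (counts in 1000000 counts of the library after scaling by TMM factors, which lay between 0.983 and 1.01). The fibroblast list was the most abundant of the marker lists, with Col1a1 between 17302 and 24006 CPM, while S100a4 of that list averaged 0.81 CPM. Its 12 genes summed to 46828 and 54585 CPM in control MEFs and to 42390 and 45711 CPM in PEDF-treated MEFs. The 8 macrophage markers summed to 95.3 to 147 CPM, the 6 endothelial markers to 16.0 to 16.7 CPM with Tie1 at 0, and the 7 epithelial markers to 44.7 to 60.7 CPM. The 7 skeletal muscle markers summed to 390 to 496 CPM and the 6 neural markers to 103 to 115 CPM.

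The stretches of sequence around the MYC and E2F motifs near the start sites are shown first, because they are the motifs that MYC and E2F factors are known to bind. RefSeq windows from 250 bases before to 50 bases after a transcription start, in the build GRCm38.p6, were found for Ccnd3 (2 starts), Ccne1, Cdk2, Cdk4, Cdk6 and E2f1. Ccnd1, Ccnd2, Ccne2 and Myc had no entry. The letters searched on both strands were CACGTG for the E-box, which reads the same on either strand, and TTTCGCGC, TTTGGCGC, TTTCCCGC and TTTGCCGC for E2F. Each line gives 30 bases on the strand of the gene, 5′ to 3′, with the motif in capitals.
Cdk4, E-box at -172: atggcagccagtCACGTGccacacagcgta
Cdk4, E-box at -118: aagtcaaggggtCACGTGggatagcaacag
Cdk4, E-box at -98: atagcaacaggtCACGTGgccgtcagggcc
Cdk4, E-box at -11: actgcgcaagggtgaagatCACGTGtccag
Cdk6, E-box at -220: gttctgcggcccCACGTGggtgaacccccg
Cdk2, E2F motif at -140: aaccaggaactGCGGGAAAgttgtgcagct

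The 4 stretches of Cdk4 lie on the plus strand at chr10:127063351-127063380, chr10:127063405-127063434, chr10:127063425-127063454 and chr10:127063505-127063534. That of Cdk6 lies on the plus strand at chr5:3343661-3343690, inside the annotated extent of the gene. That of Cdk2 lies on the minus strand at chr10:128705173-128705202, and its capitals are the reverse complement of TTTCCCGC. Distances are from the RefSeq start to the first base of the motif, and negative values lie before the start. At least 1 E-box was found in 7.15% of the 32851 windows of mouse genes, and 4 or more were found in 8 windows (0.0244%), of which that of Cdk4 was 1. At least 1 E2F motif was found in 2.26% of the windows. The windows of Ccnd3, Ccne1 and E2f1 held neither set of letters. A match describes the letters and does not show that a factor binds there.

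**Figure D1:**
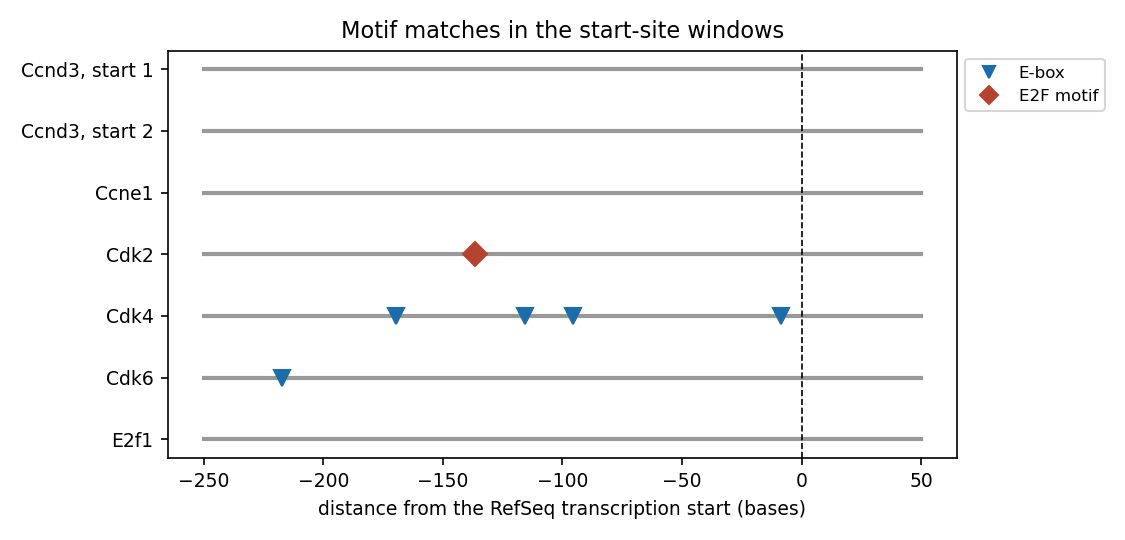
Positions of the E-box (triangles) and E2F motif (diamond) in the 7 RefSeq windows, with distance from the transcription start in bases on the horizontal axis and 1 gray line for each window. The 4 E-boxes of Cdk4 lie between -172 and -6, and the windows of Ccnd3, Ccne1 and E2f1 hold no match.

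To place the members on 1 scale, the deposited TPM (a level per length that sums to 1000000 in a library) was averaged over the 4 libraries. Cdk4 was the highest at 436 ± 12.3 TPM (SD, n = 4). Ccnd1 and Ccnd2 followed at 167 ± 1.09 and 164 ± 5.21 TPM, and their ranges over the libraries overlapped. Ccnd3 stood at 74.0 ± 2.67 TPM, below every library of Ccnd1 and Ccnd2. Myc at 56.3 ± 9.24 TPM and Ccne1 at 48.8 ± 2.50 TPM overlapped each other and lay below Ccnd3. Ccne2, Cdk2 and E2f1 formed a low group with overlapping ranges, at 26.4 ± 1.37, 25.7 ± 2.94 and 24.7 ± 1.68 TPM. Cdk6 was the lowest at 9.58 ± 1.12 TPM, below every library of the other members. The order holds for the summed exon length that the TPM uses. Cdk2 has 6219 summed exon bases against 2240 in its principal transcript, while Ccne2 has 3495 against 3006 and E2f1 has 3154 against 2732, so the low group depends on that length.

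**Figure D2:**
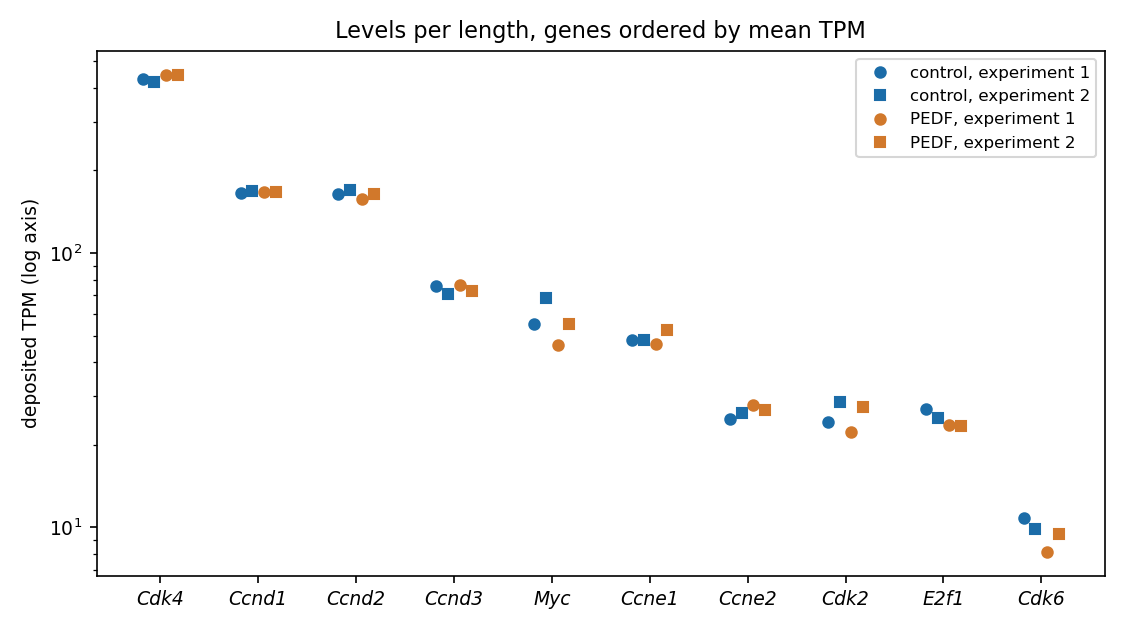
Deposited TPM of each member in each library on a log axis, with control in blue, PEDF in orange, experiment 1 as circles and experiment 2 as squares. Cdk4 lies above 421 TPM and Cdk6 below 10.9 TPM in all 4 libraries, and Ccne2, Cdk2 and E2f1 overlap.

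Within the D cyclins, Ccnd1 took 41.0% ± 0.236 of the summed TPM in control MEFs and 41.5% ± 0.157 in PEDF-treated MEFs (SD, n = 2). Ccnd2 took 41.0% ± 0.770 and 39.9% ± 0.839, and Ccnd3 took 18.0% ± 1.01 and 18.6% ± 0.682. The shares of control and PEDF-treated MEFs lay within 2 percentage points of each other for every D cyclin. Among the E cyclins, Ccne1 held 65.5% ± 0.781 in control and 64.3% ± 2.61 in PEDF-treated MEFs. Cdk4 held 97.6% ± 0.122 and 98.1% ± 0.194 of the summed TPM of Cdk4 and Cdk6. Groups of 2 allow no permutation p below 0.333, so these shares are given as descriptions. The order of the D cyclins depended on the length used. The deposited TPM divided counts by the summed length of all annotated exons, which is 8775 bases for Ccnd3 against 2113 bases in its principal transcript. Divided by the principal transcript, the shares in control MEFs were 27.6% for Ccnd1, 32.6% for Ccnd2 and 39.8% for Ccnd3, which puts Ccnd3 first.

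In PEDF-treated MEFs, the level of Myc was lower than in control MEFs of the same preparation in both experiments, Cdk4 was slightly higher in both, and the D cyclins and Ccne1 differed by at most 8.96% from the control of the same experiment. When the experiment was not modeled, no member passed an adjusted p of 0.05 in edgeR's quasi-likelihood test, which called 1 of the 19384 tested genes (0.00516%). At an unadjusted p under 0.05, Myc and Cdk6 were called, against 6.88% of all tested genes. With the experiment as a block, 1 of the 10 members, Myc, passed the adjusted threshold, against 3.75% of all genes. With the block and a correction for gene length, Myc again was the member that passed, against 2.16% of all genes. The direction was the same in both experiments for 8 of the 10 members, and for 58.9% of all tested genes. The control and PEDF libraries did not overlap for 6 members (Ccnd2, Ccne2, Cdk4, Cdk6, E2f1 and Myc), and for 37.3% of all tested genes.

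**Figure D3:**
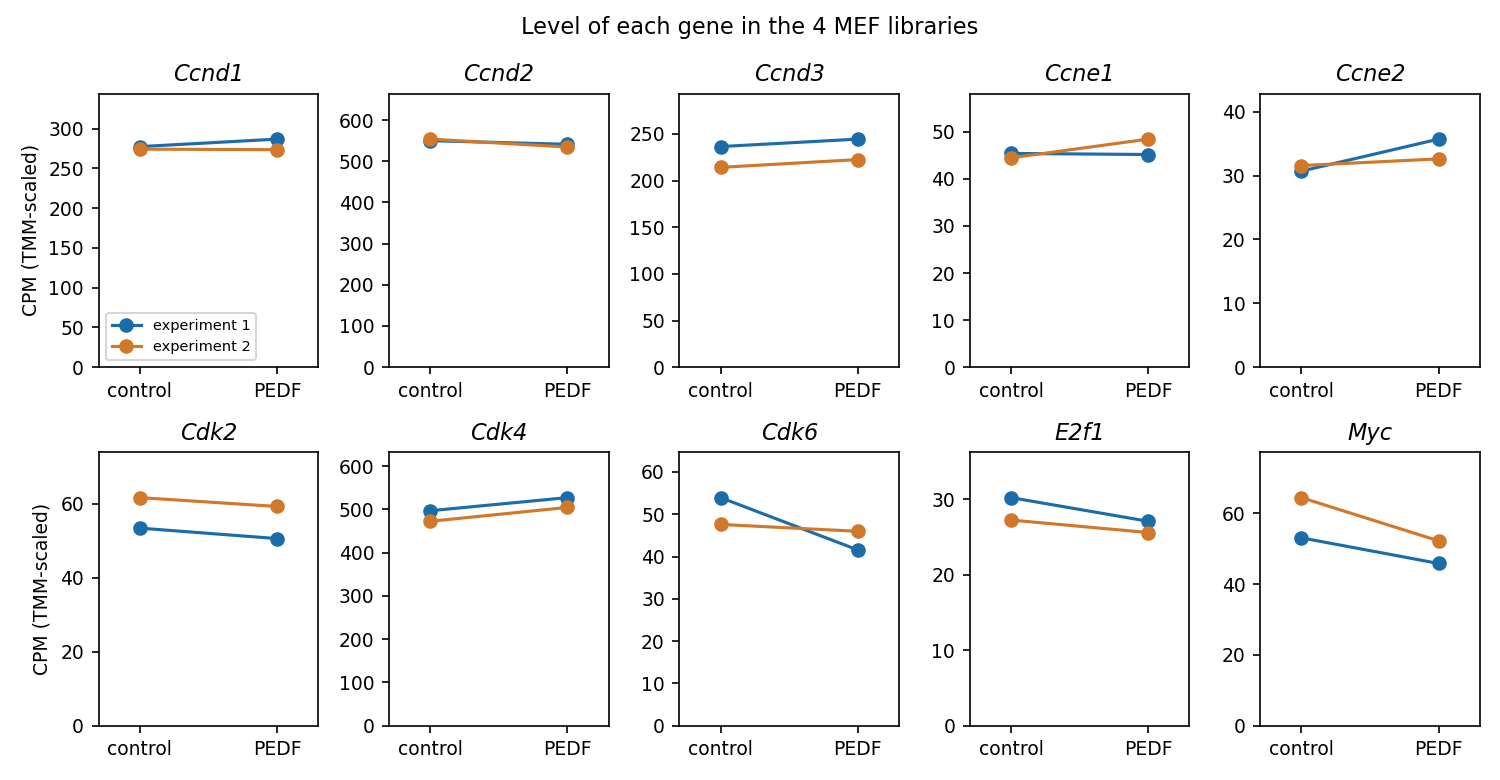
CPM of each member in the control and PEDF libraries, with a line joining the libraries of an experiment (blue, experiment 1; orange, experiment 2) and each axis starting at 0. Both lines slope down for Myc, E2f1, Cdk2, Cdk6 and Ccnd2 and up for Cdk4, Ccnd3 and Ccne2, while those of Ccnd1 and Ccne1 differ in direction.

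The gene of Ccnd1 (ENSMUSG00000070348), the D cyclin most closely tied to mitogen signals in fibroblasts, spans chr7:144929931-144939925 on the minus strand of GRCm38, with 5 exons in its principal transcript. Its level was 277 CPM in control experiment 1, 274 CPM in control experiment 2, and 287 and 274 CPM in the PEDF libraries in that order, which holds for each pair of values that follows. The libraries of the groups overlapped. The log2 fold change was 0.02 (SE 0.07, 95% interval -0.12 to 0.17, adjusted p = 0.958). Without the block the interval corresponds to -8.06% to 12.3%. With the block, where the spread was taken from a trend over all genes, it was -0.07 to 0.11, or -4.67% to 8.19%. In GENCODE release M21, 1100 bases (23.4%) of the exons of Ccnd1 lie under exons of LTO1 on the opposite strand. LTO1 had 1735 to 2072 counts a library, and the strand setting of the counting is not given in the sources used here.

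Ccnd2 (ENSMUSG00000000184), a D cyclin that can substitute for Ccnd1 in binding Cdk4 and Cdk6, spans chr6:127125162-127152193 on the minus strand. It was the member with the most counts, at 550 and 554 CPM in control MEFs and 541 and 535 CPM in PEDF-treated MEFs. Both PEDF libraries lay below both control libraries, with log2 ratios of -0.02 in experiment 1 and -0.05 in experiment 2. The log2 fold change was -0.04 (SE 0.07, 95% interval -0.18 to 0.11, adjusted p = 0.930), and it became 0.03 with the block and the length correction. The exons of Ccnd2 share 372 bases with Gm43126 on the opposite strand, which had 827 to 998 counts a library. Ccnd3 (ENSMUSG00000034165), the third D cyclin, spans chr17:47505051-47599691 on the plus strand. Its level was 236 and 214 CPM in control MEFs and 244 and 223 CPM in PEDF-treated MEFs, so that the experiments differed more than the groups. PEDF and control differed by a log2 fold change of 0.05 (SE 0.08, 95% interval -0.11 to 0.21, adjusted p = 0.917), which became 0.11 (95% interval 0.02 to 0.20, adjusted p = 0.282) with the block and the length correction. Ccnd3-ps, a pseudogene with 96.3% identity over 881 bases, had 0 to 6 counts a library, and Bysl shares 361 exon bases on the opposite strand.

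Ccne1 (ENSMUSG00000002068), which activates Cdk2 at the boundary of G1 and S phase, spans chr7:38097984-38107534 on the minus strand. Its level was 45.4 and 44.5 CPM in control MEFs and 45.2 and 48.4 CPM in PEDF-treated MEFs. The libraries overlapped, and the log2 fold change was 0.06 (SE 0.08, 95% interval -0.12 to 0.24, adjusted p = 0.914). It was 0.0051 with the block and the length correction. Ccne2 (ENSMUSG00000028212), its close relative, spans chr4:11191351-11204779 on the plus strand. It stood at 30.7 and 31.6 CPM in control MEFs and at 35.7 and 32.6 CPM in PEDF-treated MEFs. Both PEDF libraries were above both control libraries, but the size differed, with 16.3% in experiment 1 and 3.32% in experiment 2. Over both experiments the log2 fold change was 0.13 (SE 0.10, 95% interval -0.07 to 0.33, adjusted p = 0.797), with an interval that included 0. Exons of Ints8 cover 609 bases (17.4%) of Ccne2 on the opposite strand.

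Cdk2 (ENSMUSG00000025358), the partner of the E cyclins, spans chr10:128697939-128705031 on the minus strand. Its level was 53.5 and 61.7 CPM in control MEFs and 50.6 and 59.3 CPM in PEDF-treated MEFs. The libraries of experiment 2 were above those of experiment 1 in either group, and the groups overlapped. Between PEDF and control the log2 fold change was -0.07 (SE 0.10, 95% interval -0.27 to 0.14, adjusted p = 0.916), and -0.04 with the block and the length correction.

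Cdk4 (ENSMUSG00000006728), the more abundant of the kinases that bind D cyclins, spans chr10:127063534-127067920 on the plus strand, and its window holds the 4 E-boxes shown above. Its level was 497 and 473 CPM in control MEFs and 527 and 505 CPM in PEDF-treated MEFs. Within an experiment it was 6.11% and 6.80% higher with PEDF, with log2 ratios of 0.09 (95% counting interval 0.04 to 0.13) and 0.09 (0.05 to 0.14). Over all libraries the log2 fold change was 0.09 (SE 0.07, 95% interval -0.06 to 0.24, adjusted p = 0.802). With the block an unadjusted p of 0.0399 became 0.306 after adjustment, and with the length correction the log2 fold change was 0.05. Tspan31 shares 641 bases (19.7%) of the exons of Cdk4 on the opposite strand and had 1830 to 2323 counts a library.

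Cdk6 (ENSMUSG00000040274), the other kinase that binds D cyclins, spans chr5:3341485-3531008 on the plus strand. Its level was 53.9 and 47.6 CPM in control MEFs and 41.6 and 46.0 CPM in PEDF-treated MEFs. Both PEDF libraries lay below both control libraries, but the difference was larger in experiment 1. The log2 ratio there was -0.38 (95% counting interval -0.53 to -0.22), against -0.05 (-0.19 to 0.09) in experiment 2. The log2 fold change over both was -0.21 (SE 0.09, 95% interval -0.41 to -0.02), with an unadjusted p of 0.0357 and an adjusted p of 0.707, and with the block the adjusted p was 0.0935. Cdk6 has the longest summed exon length of the members, 13989 bases. With the block and the length correction its log2 fold change was -0.11 (adjusted p = 0.650), which moved the value by more than 1.5 times.

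E2f1 (ENSMUSG00000027490), an activating E2F factor and itself a target of E2F, spans chr2:154559407-154569892 on the minus strand. Its level was 30.2 and 27.2 CPM in control MEFs and 27.1 and 25.6 CPM in PEDF-treated MEFs. The highest PEDF library lay just below the lowest control library. The log2 fold change was -0.12 (SE 0.10, 95% interval -0.35 to 0.10, adjusted p = 0.827), and with the block the adjusted p was 0.621. E2f1 had 421 to 486 counts a library, the fewest of the members, and the counting intervals of both within-experiment ratios included 0.

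Myc (ENSMUSG00000022346) spans chr15:61985391-61990374 on the plus strand, with 3 exons. Experiment 1 gave 783 counts in control and 712 in PEDF-treated MEFs, and experiment 2 gave 1149 and 930 counts. Scaled to library size, the level was 53.1 and 64.4 CPM in control MEFs (58.7 ± 8.03, SD, n = 2) and 45.8 and 52.2 CPM in PEDF-treated MEFs (49.0 ± 4.52). The highest PEDF library, that of experiment 2, lay below the lowest control library, that of experiment 1, by less than 1 CPM. Against the control of its own experiment, the level was 13.7% lower in experiment 1 and 19.0% lower in experiment 2. These correspond to log2 ratios of -0.21 (95% counting interval -0.36 to -0.06) and -0.30 (-0.43 to -0.18), and both intervals exclude 0. Such intervals cover counting error only, since each group had 1 library within an experiment. PCR copies of a molecule are counted as separate reads, which the intervals do not allow for.

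Whether Myc was called depended on how the experiment was treated. Without a term for it, the log2 fold change was -0.26 (SE 0.10, 95% interval -0.48 to -0.05), with an unadjusted p of 0.0192 and an adjusted p of 0.696 in edgeR's quasi-likelihood test. With the experiment as a block, which removes the difference between MEF preparations from the spread, it was -0.26 (SE 0.07, 95% interval -0.40 to -0.12, adjusted p = 0.0107), a level 16.5% lower. With the block and the length correction it was -0.32 (adjusted p = 0.000966). DESeq2 gave -0.26 with an unadjusted p of 0.0552, or 0.0519 with the block, where it set no adjusted p. Without the block, where leaving out a library also unbalances the experiments, leaving out control replicate 1 gave -0.39 (adjusted p = 0.0188), leaving out PEDF replicate 2 gave -0.36 (adjusted p = 0.188), leaving out PEDF replicate 1 gave -0.17, and leaving out control replicate 2 gave -0.11. In bulk RNA, fewer cells with Myc transcripts and less Myc RNA in each cell cannot be told apart. The edgeR p-values of Myc rest on these 4 libraries and on a spread estimated over all genes. Without the block Myc has 2 residual and 13.3 prior degrees of freedom. With the block a gene has 1 residual degree of freedom, and the fit took the quasi-likelihood spread of every member from a trend over all genes, with infinite prior degrees of freedom. The call of Myc with the block therefore does not rest on an estimate of the spread of Myc itself.

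**Figure D4:**
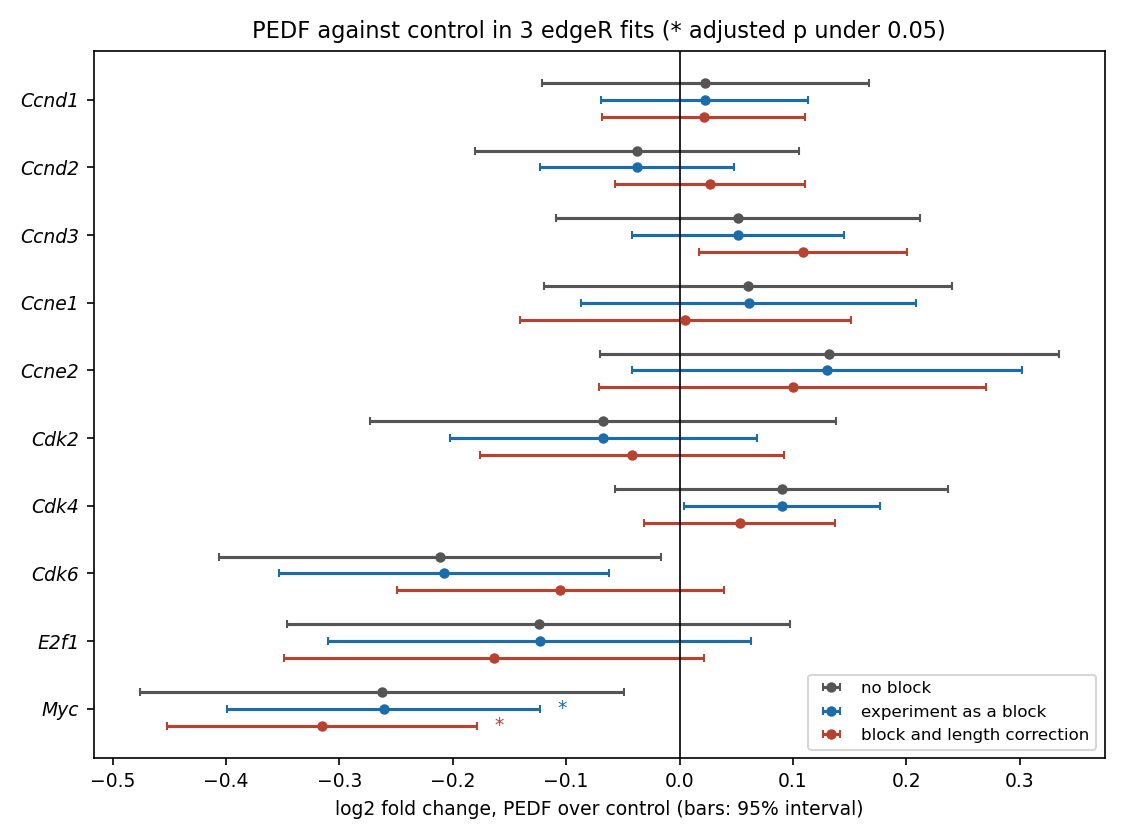
Log2 fold change of PEDF over control for each member, with 95% intervals as bars, from edgeR without the block (gray), with the experiment as a block (blue) and with the block and a length correction (red). An asterisk marks an adjusted p under 0.05, which is reached by Myc in the blue and red fits.

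The difference between the MEF preparations was then measured, with the treatment as a covariate. Of all tested genes 4.49% passed the adjusted threshold between experiment 2 and experiment 1, and Myc and Cdk2 were the members among them. Myc was higher in experiment 2, with a log2 fold change of 0.24 (SE 0.07, 95% interval 0.10 to 0.37, adjusted p = 0.0251), so the preparations differed in Myc about as much as the treatments did. Cdk2 was also higher in experiment 2, at 0.22 (SE 0.07, 95% interval 0.08 to 0.35, adjusted p = 0.0404). Ccnd3 had -0.14 (SE 0.05, adjusted p = 0.0696), and the other 7 members had adjusted p-values of 0.516 or more. Neither call held without the treatment term (adjusted p = 0.622 for Myc and 0.575 for Cdk2). The fit with both terms is the block fit read for the experiment, so its spread also came from a trend over all genes. These calls of Myc and Cdk2 therefore do not rest on an estimate of their own spread either. With a library left out the treatment term could not be fitted, and 1 experiment was then a single library of 1 treatment, so the difference between treatments entered the value. Myc had 0.38 (adjusted p = 0.0233) without PEDF replicate 2. The value for Myc was 0.14 without PEDF replicate 1, 0.35 without control replicate 1 and 0.08 without control replicate 2, and Cdk2, at 0.18 to 0.26, was called in none of these 4 fits.

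The genes around the members were read from the same fits, in 9 lists with 113 genes, all of which were tested. Without the block none of the 113 passed the adjusted threshold in edgeR with the count filter, DESeq2 or limma (0.00516% of all genes did in edgeR). When low counts were kept, 1 CDK inhibitor and 1 MYC network factor passed, and with a library left out up to 1 gene passed in 4 of the lists. With the filter, 11 had an unadjusted p under 0.05 in edgeR, against 6.88% of all genes. With the block, 4 were higher and 3 lower with PEDF (against 3.75% of all genes called in either direction), and with the length correction as well, 3 were higher and 1 lower (against 2.16%). The median log2 fold change of each list lay between -0.09 and 0.09 with the block, that of the 10 members was -0.01, and that of all tested genes was 0.00. With the block each gene of the lists also has 1 residual degree of freedom, so its p-value leans on a spread estimated over all genes.

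Of the 10 CDK inhibitors and pocket proteins, 1 was higher with the block. Cdkn1c, which encodes the inhibitor p57, stood at 261 and 211 CPM in control MEFs and at 318 and 277 CPM in PEDF-treated MEFs. Both PEDF libraries were above both control libraries, and the log2 fold change was 0.34 with the block (SE 0.05, adjusted p = 2.67e-10) and 0.26 with the length correction. Without the block its adjusted p was 0.696.

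Of the 13 other genes of the MYC network, 1 was lower with the block. Trrap, a scaffold of histone acetyltransferase complexes that MYC recruits, stood at 157 and 178 CPM in control MEFs and at 130 and 143 CPM in PEDF-treated MEFs. Its log2 fold change was -0.30 (SE 0.05, adjusted p = 2.1e-06), and -0.15 (adjusted p = 0.0849) with the length correction. Mxd4, which encodes a partner of MAX that competes with MYC, passed only with the length correction, at 0.22 (adjusted p = 0.00803). It is named because it was called there, after its value was seen.

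Of the 20 MYC target genes, 1 rose and 1 fell with the block, and the median was -0.03. Cad, the enzyme of the first steps of pyrimidine synthesis, stood at 199 and 240 CPM in control MEFs and at 176 and 192 CPM in PEDF-treated MEFs. Its log2 fold change was -0.25 (SE 0.05, adjusted p = 5.1e-05), and -0.20 with the length correction (adjusted p = 0.00405). Ldha, which encodes a subunit of lactate dehydrogenase, moved the other way, from 672 and 633 CPM in control MEFs to 775 and 693 CPM in PEDF-treated MEFs. Its log2 fold change was 0.17 (SE 0.04, adjusted p = 0.00579), and its call was lost with the length correction (0.13, adjusted p = 0.0694).

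Of the 24 E2F target genes, Tyms was the gene called, and it was higher with PEDF. Tyms encodes thymidylate synthase and stood at 46.4 and 42.2 CPM in control MEFs and at 56.7 and 48.2 CPM in PEDF-treated MEFs, with a log2 fold change of 0.24 (SE 0.07, adjusted p = 0.0354) with the block and 0.26 with the length correction. None of the 9 other E2F and DP factors passed. The most abundant of them, Tfdp1, had -0.03 (adjusted p = 0.849) and E2f4, a repressive member of the family, had -0.14 (adjusted p = 0.355) with the block. Of these 2 factors, Tfdp1 ranged from 150 to 157 CPM over the libraries and E2f4 from 50.9 to 56.3 CPM.

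None of the 15 activators of CDKs and factors of G1 cyclin turnover passed with the block. Gsk3b, a kinase that marks cyclin D1 for degradation, had -0.14 (adjusted p = 0.197), and Cks1b, a small CDK-binding subunit, had 0.09 (adjusted p = 0.532). None of the 6 cyclins and CDKs of S and G2 phase passed either. Ccna2 had -0.04 (adjusted p = 0.828) and Cdk1, the kinase of mitosis, had 0.13 (adjusted p = 0.217). Of the 9 other cyclins and CDKs, Ccni was higher with the block, from 146 and 138 CPM in control MEFs to 168 and 154 CPM in PEDF-treated MEFs (0.18, SE 0.05, adjusted p = 0.0179), but its adjusted p was 0.119 with the length correction. Of the 9 proliferation markers, Mki67, which encodes the Ki-67 antigen, was lower with the block, at 218 and 235 CPM in control MEFs and at 200 and 205 CPM in PEDF-treated MEFs (-0.16, SE 0.05, adjusted p = 0.0298). With the length correction its log2 fold change was -0.09 (adjusted p = 0.448). The median log2 fold change of the 9 proliferation markers was 0.04 with the block, in the other direction.

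**Figure D5:**
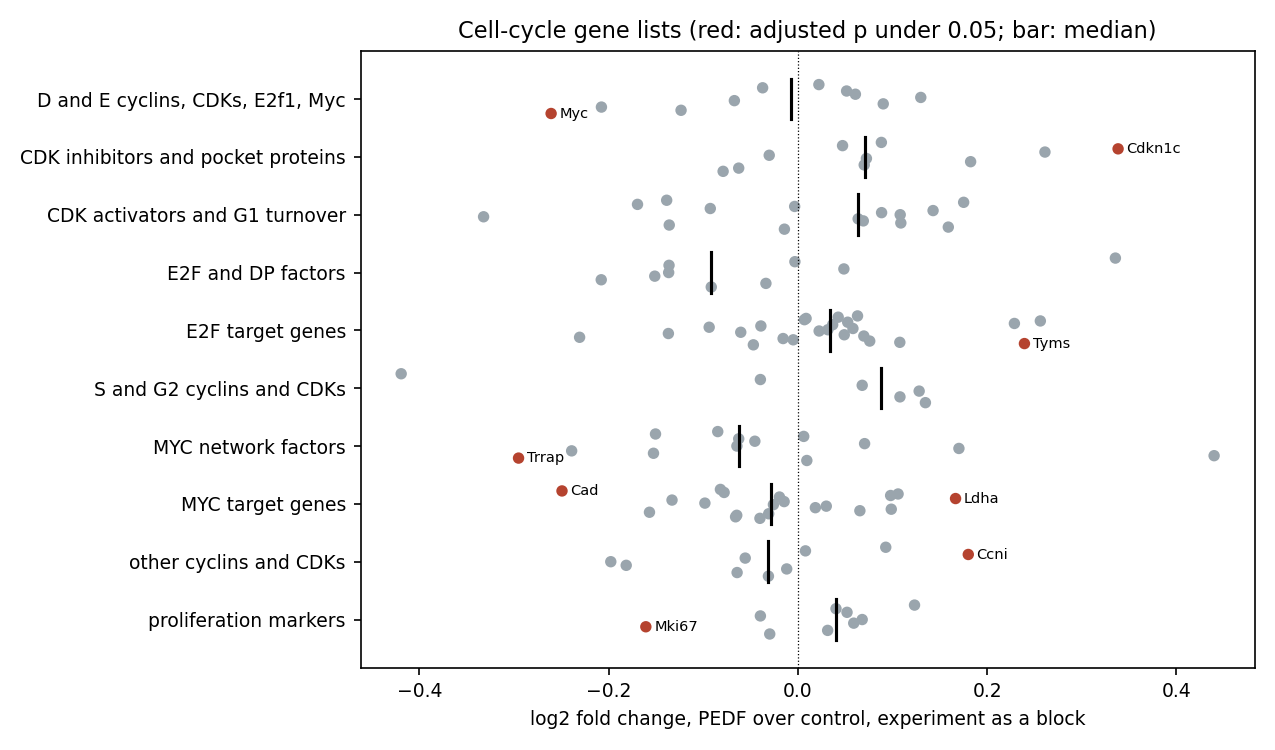
Log2 fold change of PEDF over control with the experiment as a block for the members and the 9 lists around them, with 1 point for each gene, a black bar at the median of each list and red for an adjusted p under 0.05. There are 0 to 2 calls in a list, 4 above 0 and 4 below 0 with Myc included, and the medians lie between -0.09 and 0.09.

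Markers of cell types moved in the same fit with the block. Of the 12 fibroblast markers, 2 rose (Dcn at 0.35 and Lum at 0.34) and 4 fell (Col1a1 at -0.24, and Col1a2, Fn1 and Pdgfrb), against 3.75% of all genes called. With the length correction 2 rose and 3 fell. Of the 8 macrophage markers, Lyz2 was called at 0.39, while the other 7 were not called and the median of the list was 0.00. Lyz2 stood at 60.5 and 26.3 CPM in control MEFs and at 62.6 and 46.1 CPM in PEDF-treated MEFs, so that its difference was larger in experiment 2. The muscle markers Des and Acta1 rose by 0.19 each, and neither was called with the length correction. In edgeR with the count filter and no block, none of these markers was called. No endothelial, epithelial or neural marker was called. Whether these shifts had a part in the values of Myc or of the other genes was not tested.

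The genes whose 4 values followed a member most closely were sought among 10702 other genes with a mean log2 CPM above 3, by the root mean square distance between centered log2 CPM values. For Ccnd1 they were Keap1, at a distance of 0.00298, and Ptpn1, at 0.00405. For E2f1 they were Tmem60 (0.00435) and Sulf1 (0.00685), and for Myc they were Wdr90 (0.00465) and Ccdc9b (0.00531). Wdr90 ran at 31.2 and 37.7 CPM in control MEFs and at 26.7 and 30.4 CPM in PEDF-treated MEFs, the same order of libraries as Myc. With 4 libraries, near matches of this kind are a description of the profiles.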

How the data were processed

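Polyadenylated RNA of 4 MEF libraries was made into directional libraries. Per the labels, the submitters' processing notes name FastQC 0.11.7, Trimmomatic 0.38, HISAT2 2.1.0, SAMtools 1.9, featureCounts 1.6.3 and the build mm10. The authors deposited counts of reads per gene without normalization, and TPM with a sum of 1000000 in every library. The lengths implied by counts and TPM were within 0.1% of the GENCODE M21 exon length for 98.1% of the 19384 genes tested, those with 10 or more counts summed over the libraries. The strand setting of the counting is not given in the sources used here.

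Counts were compared with edgeR 4.0.16 in R 4.3.3 (TMM factors, quasi-likelihood test with robust estimates, Benjamini-Hochberg adjustment over all tested genes). Standard errors were derived from the F statistic. The main comparison had no covariate. The labels give each experiment its own embryos, so the experiment pairs the libraries. The difference between experiments correlated between control and PEDF libraries (r = 0.423 across 10703 genes, which are not independent), and the experiment was also fitted as a replicate block. The length correction used a natural spline of 5 degrees of freedom for each library as an offset.

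Within an experiment there was 1 library a group, and ratios have exact binomial intervals. Alternatives were DESeq2 1.42.0, RLE factors, filterByExpr, no filter, limma 3.58.1 on log2 TPM (pseudocount 1), and the omission of each library. Shares by principal transcript length were added after seeing the data, and exon lengths of GENCODE replaced a length column as a further alternative to TPM. Near-identical transcripts were sought with blastn 2.17.0. The code was tested on simulated counts with planted changes larger than those of the members and the listed genes called. That test does not show how reliable calls of smaller changes are. The members were named at the outset, and of the lists the text names genes with an adjusted p under 0.05 with or without the block (at most 6 a list), or the 2 most abundant of a cell-cycle list where none passed. S100a4 and Tie1 are named outside this rule for their low levels, chosen after their values were seen. The members and lists were chosen with earlier results of these data known.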

Additional observations from a re-analysis of the deposited data

Results flagged for a closer look

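Ccnd1 and Ccne1 moved in opposite directions in the 2 experiments. The log2 ratio of PEDF to control of Ccnd1 was 0.048 in experiment 1 and -0.0033 in experiment 2, and that of Ccne1 was -0.0075 and 0.124. All 4 counting intervals include 0, and the difference between the experiments was not tested.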

How the results depend on the processing

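The number of genes past the adjusted threshold between PEDF and control was 1 in edgeR without the block, 4 in DESeq2, 0 with filterByExpr and in limma, and 106 with no filter on low counts. It was 726 with the replicate block, 117 with the block in DESeq2 and 419 with the block and the length correction. It ranged from 8 to 332 with a library left out (10 without PEDF replicate 1, 103 without PEDF replicate 2, 332 without control replicate 1 and 8 without control replicate 2). The count of members was 0 in edgeR without the block, 1 with the block, 1 with the block and the length correction, and 0 to 1 with a library left out. No paired fit changed the call of a member other than Myc.

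Each list had 0 genes called in edgeR with the count filter, all libraries and no block. The CDK inhibitors had 1 with no filter, with the block, with the block in DESeq2 and with the length correction, and 0 to 1 with a library left out. The MYC network factors had 1 in the same 4 settings and 0 to 1 with a library left out. The MYC targets had 2 with the block, 1 with the block in DESeq2, 1 with the length correction and 0 to 1 with a library left out. The E2F targets had 1 with the block and 1 with the length correction. The other cyclins and CDKs had 1 with the block and 0 to 1 with a library left out, and the proliferation markers had 1 with the block.

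Between experiments, 870 genes were called with the treatment as a covariate, 99 in DESeq2, 0 in limma, 11 without the treatment term, and 2 to 465 with a library left out (2 without PEDF replicate 1, 465 without PEDF replicate 2, 7 without control replicate 1 and 62 without control replicate 2). The count of members fell from 2 to 0 in DESeq2, which set no adjusted p for Myc and Cdk2, to 0 in limma and without the treatment term, and to 0 to 1 with a library left out. The unadjusted p-values of Myc and Cdk2 were 0.0377 and 0.0448 in limma and 0.0798 and 0.0954 in DESeq2.

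Signs that changed belonged to members without a call. Between PEDF and control, Ccnd1 was -0.0013 in limma and -0.0116 to 0.0571 with a library left out, Ccnd2 was 0.0267 with the block and the length correction, Ccnd3 was -0.0192 to 0.12 and Cdk2 -0.19 to 0.0415 with a library left out. With a library left out, E2f1 was -0.20 to -0.05, Cdk6 -0.30 to -0.12, Ccne2 0.07 to 0.20, Cdk4 0.05 to 0.13 and Ccne1 0.01 to 0.11, each with its sign kept. Between experiments, limma gave 0.0122 for Ccnd1, 0.0506 for Ccnd2, 0.00895 for Ccne2 and 0.0324 for Cdk6. With a library left out, Ccnd2 was -0.0289 to 0.0192, Ccne1 -0.0289 to 0.10, Ccne2 -0.15 to 0.0639 and Cdk6 -0.21 to 0.17. The cause was not tested.

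By principal transcript length, the shares in control and PEDF-treated MEFs were 27.6% and 27.7% for Ccnd1, 32.6% and 31.4% for Ccnd2, 39.8% and 40.8% for Ccnd3, 68.4% and 67.3% for Ccne1, 31.6% and 32.7% for Ccne2, 98.2% and 98.5% for Cdk4, and 1.83% and 1.49% for Cdk6. The length used is the cause by construction.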
